A study of Sus scrofa with 19 samples.

Results

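The 9 genes of the FoxO and muscle atrophy programme were followed in myocardium, described as left ventricular, of pigs with 4 kinds of cardiac damage. They were the forkhead factors FOXO1, FOXO3 and FOXO4, the ubiquitin ligases FBXO32, TRIM63, TRIM54, TRIM55 and FBXO40, and the secreted growth inhibitor MSTN. The genes were listed by symbol, looked up in the gene table of the authors and matched by Ensembl identifier to the raw counts. All 9 were found among 25879 genes in the count files, and all 9 were among the 13552 genes with enough reads to be tested.

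Bulk RNA-seq was carried out on 1 myocardial sample from each of 19 pigs, described as female large whites. The DOX group (n = 5) was given doxorubicin and the MYO group (n = 5) Myocet, a liposomal form of the same anthracycline, both at 60 mg/m2 in 3 cycles, with a follow-up (FUP) of 3 months after the first injection. The RemoLV group (n = 3) had a percutaneous coronary occlusion of 90 min with reperfusion, and non-infarcted myocardium was collected after 6 months. By the methods of the study this was posterior wall and the other groups gave anterior wall, so wall and model cannot be told apart. The Hyper group (n = 3) had an artificial stenosis of the aortic isthmus, and the Control group (n = 3) is called sham-operated in the labels and untreated in the methods of the study. Both of these groups had a FUP of 6 months. DOX and MYO pigs came from an earlier experiment, so drug, FUP and series of animals cannot be told apart in their comparisons with the other groups.

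The libraries held 9527710 to 20370209 counts. The group names on the count files and those on the sample columns of the authors' table did not match for 8 of 19 columns. The 3 files labelled RemoLV carry the Control names in that table, the 3 files labelled Control carry the RemoLV names, and the files DOX5 and MYO1 are exchanged. Groups below are named by the count files, and for the main results values with the table names are also given. The labelled tissue was checked with marker genes. The RemoLV-labelled libraries had 6030 to 8130 CPM (counts scaled to library size) of the atrial light chain MYL4, against at most 21.9 CPM in any other library, and 18.6 to 115 CPM of the ventricular light chain MYL2, against at least 8980 CPM elsewhere. The Y-linked gene DDX3Y was at 96.1 to 177 CPM in the 10 DOX and MYO libraries and reached no more than 2 counts in any library of the 3 remaining groups, although the labels describe females. This difference, too, cannot be told apart from the drug in any comparison of DOX or MYO with the other groups.

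FoxO factors are transcription factors that insulin and IGF-1 signalling keep out of the nucleus, through phosphorylation by AKT. When that signalling is low they enter the nucleus and drive genes of protein breakdown, autophagy and fuel use. In skeletal muscle and heart their best known targets are FBXO32, which encodes atrogin-1, and TRIM63, which encodes MuRF1, the ubiquitin ligases that mark sarcomere and regulatory proteins for the proteasome during atrophy. Myostatin, the product of MSTN, acts through activin receptors and SMAD proteins, restrains muscle mass and is also made by cardiomyocytes.

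By file label, 3 ligases, 1 FoxO factor and MSTN differed from Control. TRIM54, TRIM55 and FBXO40 were lower in the RemoLV-labelled than in the Control-labelled libraries, with TRIM54 at 56.4 ± 10.5 against 277 ± 22.5 CPM (mean ± SD, n = 3 in each group). FOXO3 was lower in both drug groups than in Control, at 101 ± 15.3 CPM in DOX and 105 ± 9.27 CPM in MYO (n = 5 each) against 170 ± 40.0 CPM. MSTN was lower in the drug groups than in Hyper, and in MYO than in Control. With the file labels and all libraries in 1 fit, no member was called higher than Control. By table name the RemoLV-labelled libraries, with their high MYL4 and low MYL2, serve as Control. Then 4 members were called higher in DOX (15% of all genes) and 4 in MYO (14.8%). In RemoLV 3 were higher (24%) and in Hyper 3 (18.7%). Lower were 3 in DOX (14.6%) and 2 in MYO (14.4%). The ligase differences from Control called by file label changed sign when the table names were used.

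**Figure D1:**
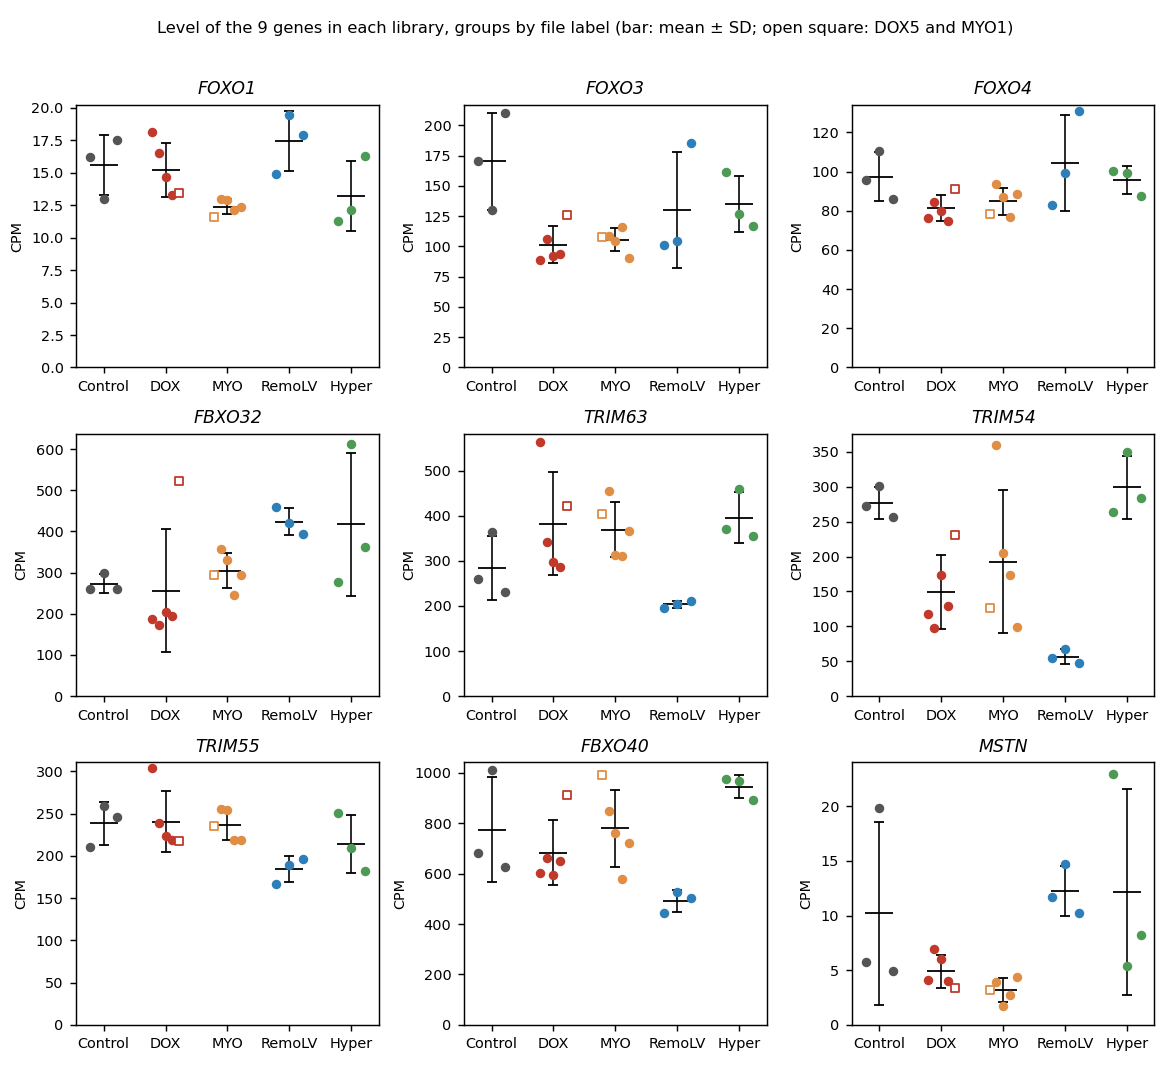
CPM of each of the 9 genes (vertical axes, from 0) in every library, with the groups as labelled on the count files (horizontal axes). Points are libraries, bars are mean ± SD, and open squares are DOX5 and MYO1, which the authors' table exchanges. The RemoLV-labelled libraries are the lowest for TRIM63, TRIM54 and FBXO40, and DOX5 stands apart for FBXO32 at 523 CPM.

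Calls were made with the edgeR quasi-likelihood test at a Benjamini-Hochberg adjusted p of at most 0.05 over all tested genes, with no fold threshold. In DOX against Control 2 of 9 members were called, where 42.1% of all tested genes were; 0 members were higher (21% of all genes) and 2 lower (21.1%). In MYO against Control 2 of 9 were called, against 42.4% of all genes, again 0 higher (20.7%) and 2 lower (21.7%). RemoLV against Control gave 3 of 9, against 47.2%, with 0 higher (23.1%) and 3 lower (24%). In RemoLV against Hyper 3 of 9 were called, against 35.6%, with 0 higher (17%) and 3 lower (18.6%). DOX and MYO together against Hyper gave 2 of 9, against 32.6%, with 0 higher (15.8%) and 2 lower (16.9%). In either direction, the members called were 22.2% or 33.3% of the 9, below the share of all genes in each of these 5 comparisons. The called members were all lower, and their share among lower calls was above that of all genes. Since the 9 genes were chosen with results of these data known, nothing is read from that. Hyper against Control gave 0 calls among the members and 0% among all genes, with 1 member and 2418 genes at an unadjusted p under 0.05. DESeq2 called 0 members and 312 genes there. Without Control2 edgeR called 2538 genes (18.4%) in that comparison and still 0 members. DOX against MYO also gave 0 members and 0% of all genes, with 1 member and 960 genes under 0.05 unadjusted, and DESeq2 called 0 members and 2 genes. The replicates are separate animals. In bulk tissue, fewer cells that express a gene and less of its RNA per cell cannot be told apart.

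FOXO3 (ENSSSCG00000004387) lies on the plus strand at chr1:74626673-74760323 of Sscrofa11.1 in the RefSeq annotation, and FOXO4 (ENSSSCG00000012399) on the plus strand at chrX:57132549-57140377. FOXO3 is the factor most often linked to FBXO32 induction in atrophying muscle. The 300 bases before each annotated gene start were searched on both strands for the forkhead letters GTAAACA and CAAAACA, since FoxO factors bind such sequences. The windows of FOXO3 and FOXO4 are shown because they were the ones among the 9 members that held either motif, with the matches in capitals and the gene strand written 5′ to 3′.
FOXO3, chr1:74626373-74626672: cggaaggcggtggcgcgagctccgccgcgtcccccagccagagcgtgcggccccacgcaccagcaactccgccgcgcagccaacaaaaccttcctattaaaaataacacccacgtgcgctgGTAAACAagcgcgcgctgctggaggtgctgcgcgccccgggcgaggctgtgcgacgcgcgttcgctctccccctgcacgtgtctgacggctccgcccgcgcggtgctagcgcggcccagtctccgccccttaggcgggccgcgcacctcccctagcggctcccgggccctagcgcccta
FOXO4, chrX:57132249-57132548: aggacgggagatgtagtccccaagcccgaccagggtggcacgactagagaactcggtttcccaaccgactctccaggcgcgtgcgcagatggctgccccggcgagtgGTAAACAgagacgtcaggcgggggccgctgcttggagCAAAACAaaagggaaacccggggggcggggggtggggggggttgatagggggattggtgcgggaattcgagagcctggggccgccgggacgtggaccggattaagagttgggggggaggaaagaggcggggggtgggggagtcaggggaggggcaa
The match in FOXO3 begins 179 bases before the gene start, and those in FOXO4 begin 193 and 156 bases before it. Among windows of the same length at 19556 genes, 2.87% held GTAAACA, 5.24% held CAAAACA and 7.86% held either. A match is a description of the letters, not a binding site. The windows of FBXO32, TRIM63, TRIM54, TRIM55, FBXO40, FOXO1 and MSTN held neither string. The TRIM54 gene model is partial, and the annotated start of MSTN is its first coding base, so these windows may not lie at the start of transcription.

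FOXO3 was at 171, 130 and 210 CPM in the Control-labelled libraries. In DOX it was at 88.9, 106, 92.1, 93.3 and 126 CPM, and in MYO at 108, 109, 104, 116 and 90.7 CPM. All 10 drug libraries were below the lowest Control library. The fitted log2 fold change was -0.75 (SE 0.187, edgeR adjusted p = 0.00415) in DOX and -0.69 (SE 0.187, adjusted p = 0.00687) in MYO, or 1.68-fold and 1.61-fold lower. The DOX call held in all 17 settings tried with the file labels. The MYO call ended without Control3, at -0.51 (edgeR adjusted p = 0.0713). FOXO3 was at 101, 104 and 186 CPM in RemoLV and at 161, 127 and 117 CPM in Hyper, ranges that overlap Control, and neither comparison was called. The RemoLV value was also decided by single libraries: it was -0.73 (edgeR adjusted p = 0.00635) without RemoLV3 and -0.55 (adjusted p = 0.043) without Control2, against -0.38 (adjusted p = 0.145) with all libraries. By table name the drug groups differed from Control by -0.42 (edgeR adjusted p = 0.0978) in DOX and -0.26 (adjusted p = 0.321) in MYO.

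FOXO1 (ENSSSCG00000009370; chr11:15317222-15410059, minus strand), which shares most targets with FOXO3, had 140 to 345 counts per library. Group means ran from 12.4 ± 0.579 CPM in MYO (n = 5) through 13.2 ± 2.69 in Hyper (n = 3), 15.2 ± 2.10 in DOX (n = 5) and 15.6 ± 2.34 in Control (n = 3) to 17.4 ± 2.31 CPM in RemoLV (n = 3). All 5 MYO libraries, at 11.6 to 13.0 CPM, were below the lowest Control library at 13.01 CPM. The difference from Control was -0.33 (95% interval -0.61 to -0.05, edgeR adjusted p = 0.0741), and it was called without Control2, at -0.45 (adjusted p = 0.0245). The ranges of neighbours in this order overlapped. In RemoLV against Hyper, FOXO1 differed by 0.40 (edgeR adjusted p = 0.0644), and it was called without Hyper3 at 0.57 (adjusted p = 0.0143) and without RemoLV1 at 0.50 (adjusted p = 0.0427). With all libraries it was called under upper-quartile scaling at 0.48 (edgeR adjusted p = 0.022) and with at least 10 counts asked of every library at 0.44 (adjusted p = 0.0436).

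FOXO4, an X-linked FoxO factor, was at 74.8 to 93.5 CPM over the 10 drug libraries. It was at 86.0 to 111 CPM in Control, 87.6 to 100 CPM in Hyper and 83.1 to 131 CPM in RemoLV. No comparison of FOXO4 was called with the file labels. By table name, DOX was lower than Control, at a log2 fold change of -0.40 (SE 0.12, edgeR adjusted p = 0.0164).

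FBXO32 (ENSSSCG00000005981; chr4:15895875-15925929, plus strand) encodes the F-box subunit that gives an SCF ubiquitin ligase its substrates. It was at 187, 173, 204, 195 and 523 CPM in DOX and at 295, 358, 331, 244 and 295 CPM in MYO. Control stood at 260, 300 and 260 CPM. DOX5 was above every MYO and every Control library, and the other 4 DOX libraries were below them all. In RemoLV FBXO32 was at 460, 419 and 393 CPM, above all 3 Control libraries, and in Hyper at 276, 612 and 362 CPM. The log2 fold changes from Control were 0.63 (SE 0.339, edgeR adjusted p = 0.131) in RemoLV and 0.61 (SE 0.339, adjusted p = 0.347) in Hyper, and neither was called. Fitted with the libraries of RemoLV and Control alone, whose replicates were close for this gene, RemoLV was called at 0.64 (SE 0.132, edgeR adjusted p = 0.00766). By table name RemoLV was at -0.63 (edgeR adjusted p = 0.0594) with all libraries in the fit.

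The DOX level of FBXO32 rested on DOX5. The log2 fold change from Control was -0.09 (SE 0.301, edgeR adjusted p = 0.829) with this library and -0.53 (SE 0.19, adjusted p = 0.0351) without it. DOX5 and MYO1 are the pair that the table names exchange. With the file labels, DOX and MYO had means of 256 and 305 CPM and an edgeR log2 difference of -0.25 (adjusted p = 0.87). With the table names the means were 211 ± 48.5 and 350 ± 106 CPM (n = 5 each), and the edgeR log2 difference was -0.73 (unadjusted p = 0.0024, adjusted p = 0.441). Neither difference was called. TRIM54 behaved in the same way in this pair of groups, with a DOX minus MYO log2 difference of -0.37 (edgeR unadjusted p = 0.2, adjusted p = 0.802) by file label and -0.73 (unadjusted p = 0.00604, adjusted p = 0.481) by table name.

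**Figure D2:**
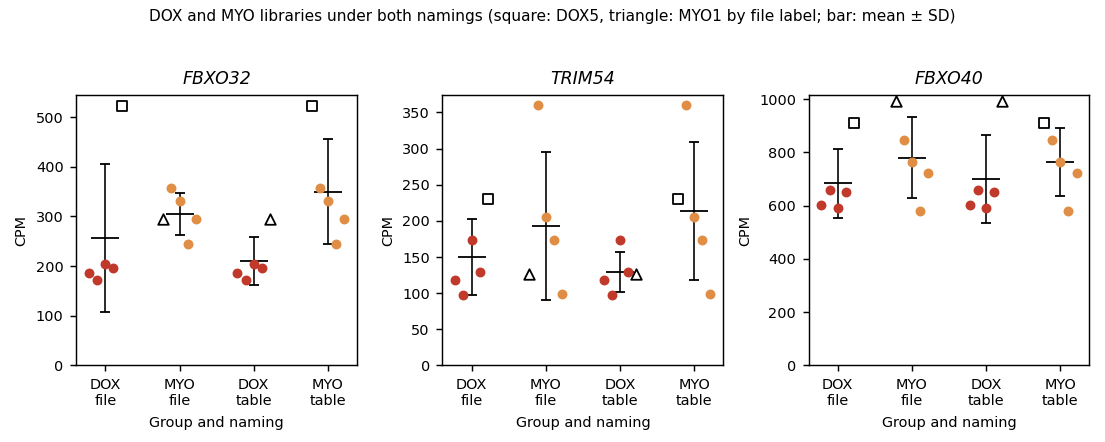
CPM (vertical axes, from 0) of FBXO32, TRIM54 and FBXO40 in the DOX and MYO libraries, grouped by file label and by table name (horizontal axes). Points are libraries, the square is DOX5 and the triangle MYO1 by file label, and bars are mean ± SD (n = 5). Exchanging DOX5, at 523 CPM of FBXO32, with MYO1, at 295 CPM, changes the group means from 256 and 305 to 211 and 350 CPM.

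TRIM63 (ENSSSCG00000027684; chr6:83493200-83507471, minus strand) encodes MuRF1, a RING finger ligase of the M-band that targets thick filament proteins. It was at 195, 205 and 210 CPM in the RemoLV-labelled libraries, the lowest 3 of the 19. Hyper stood at 370, 460 and 356 CPM and did not overlap RemoLV, with a RemoLV minus Hyper log2 difference of -0.96 (SE 0.226, edgeR adjusted p = 0.00301), or 1.94-fold lower. That call held in all 13 settings tried with the file labels. Control was at 259, 365 and 230 CPM, above RemoLV and overlapping Hyper, and neither RemoLV (-0.48, edgeR adjusted p = 0.0845) nor Hyper (0.47, adjusted p = 0.279) was called against it. DOX ranged from 286 to 563 CPM and MYO from 311 to 454 CPM. Their log2 differences from Control were 0.42 (edgeR adjusted p = 0.1) and 0.38 (adjusted p = 0.143). Both were called without Control2, the Control library with the highest level, at 0.64 (edgeR adjusted p = 0.0253) and 0.59 (adjusted p = 0.0357).

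TRIM54 (ENSSSCG00000039557; chr3:111836038-111852468, minus strand) encodes MuRF3, which binds microtubules and the Z-disc. It had the widest span among the ligases, 7.68-fold from the lowest to the highest library. It was at 54.6, 67.7 and 46.9 CPM in RemoLV, below all other libraries. Control was at 273, 301 and 256 CPM and Hyper at 264, 350 and 284 CPM. Their ranges overlap, and both lie far above RemoLV. RemoLV was lower than Control, at a log2 fold change of -2.29 (SE 0.374, edgeR adjusted p = 9.4e-05), or 4.9-fold, and lower than Hyper, at -2.41 (SE 0.375, adjusted p = 8.55e-05), or 5.3-fold. TRIM54 was the member that passed the fold threshold the study sets for DEGs, an absolute log2 fold change of 2, and both calls held in all 13 settings with the file labels.

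In DOX, TRIM54 was at 118, 97.7, 173, 129 and 230 CPM, all below Control, with a log2 fold change of -0.89 (SE 0.312, edgeR adjusted p = 0.0298). This call was lost without any 1 of Control1, Control2, Control3, DOX1, DOX2 or DOX4 (edgeR adjusted p of 0.0551 to 0.0705). It was also lost with the replicate number as a block, at -0.84 (edgeR adjusted p = 0.0777). MYO was more spread, at 127, 360, 206, 173 and 99.0 CPM. MYO2 was above every Control library, and the log2 fold change was -0.52 (edgeR adjusted p = 0.192), or -0.87 (adjusted p = 0.0133) without MYO2.

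TRIM55 (ENSSSCG00000006216; chr4:68487249-68530927, minus strand) encodes MuRF2, a partner of titin and microtubules. Its 19 levels spanned 1.82-fold. RemoLV, at 167, 189 and 196 CPM, was below Control, at 210, 259 and 246 CPM, with a log2 fold change of -0.37 (SE 0.14, edgeR adjusted p = 0.0361). That call was lost in 7 of 13 settings, including those without RemoLV1, RemoLV2, Control2 or Control3, with adjusted p of up to 0.131. DOX (218 to 304 CPM) and MYO (219 to 255 CPM) differed from Control by 0.01 (95% interval -0.23 to 0.26) and -0.01 (95% interval -0.25 to 0.24), and Hyper by -0.15 (95% interval -0.43 to 0.12).

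FBXO40 (ENSSSCG00000011885; chr13:138881528-138905410, minus strand) encodes a muscle F-box protein that targets IRS1, the docking protein of insulin and IGF-1 receptors. It was at 444, 527 and 502 CPM in RemoLV, again the lowest 3 of 19. Hyper was at 976, 968 and 892 CPM and Control at 683, 1013 and 628 CPM. RemoLV was lower than Hyper, at a log2 difference of -0.94 (SE 0.199, edgeR adjusted p = 0.00123), and lower than Control, at -0.66 (SE 0.198, adjusted p = 0.011). The first call held in all 13 settings with the file labels. The second ended without Control2, at -0.42 (edgeR adjusted p = 0.0711). DOX ranged from 593 to 911 CPM and MYO from 579 to 991 CPM, and both overlapped Control.

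The cell markers moved with these ligase differences. Over the 5 measured atrial cardiomyocyte markers the summed level was 9550 to 12800 CPM in RemoLV against 109 to 164 in Control and 206 to 1270 in Hyper, and all 5 were called higher in RemoLV than in Control. The 5 ventricular markers summed to 25000 to 29100 CPM in RemoLV, 50000 to 74500 in Control and 55800 to 66000 in Hyper, and all 5 were called lower in RemoLV than in Control. Fibroblast markers summed to 10700 to 12300 CPM in RemoLV, 2050 to 3440 in Control and 1540 to 3830 in Hyper. Markers shared by all cardiomyocytes summed to 28200 to 29900 CPM in RemoLV and 30600 to 40200 in Control, but 5 of 7 were called lower in RemoLV, with a list median log2 fold change of -0.83. TNNT2, cardiac troponin T, was at 6850 to 7470 CPM against 10000 to 14500, while ACTC1, cardiac actin, was at 8870 to 9810 CPM against 1060 to 2930. Of 10 skeletal muscle markers 7 were measured, their sum was at most 0.761 CPM in any library, and PAX7, the satellite cell factor, was at 0 in all 19. In RemoLV against Control, 3 of 3 blood markers were called lower, 1 of 3 adipocyte markers higher and 2 of 5 endothelial markers lower. Of 4 macrophage and leukocyte markers 2 were called higher and 1 lower, and of 4 smooth muscle markers 0 were called. Markers also moved with the drug groups. Fibroblast markers summed to 4740 to 7070 CPM in DOX and 4550 to 6630 in MYO, above Control and Hyper, but of these 7 genes DOX had 3 called higher and 0 lower than Control, and for MYO the counts were 3 and 1. Of the 7 shared cardiomyocyte markers 2 were called higher and 5 lower in DOX, and 1 and 5 in MYO. Atrial markers summed to 1120 to 2420 CPM in DOX and 774 to 1250 in MYO, with 2 of 5 called higher and 0 lower in each. MYL7 alone was at 1080 to 2380 CPM in DOX and 736 to 1190 CPM in MYO. The list medians against Control were -0.11 and -0.08. Of 4 macrophage and leukocyte markers 3 were higher and 1 lower in DOX, and 1 and 1 in MYO, and of 3 blood markers 3 were lower in DOX and 1 in MYO. The part of tissue composition in the differences of TRIM63, TRIM54, TRIM55 and FBXO40, and in those of FOXO3, MSTN and the SCF genes in the drug groups, was not tested.

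MSTN (ENSSSCG00000016047; chr15:94623526-94628440, minus strand) was low, with 24 to 335 counts per library, and had the widest relative spread of the members. It was at 4.06, 6.95, 6.07, 3.97 and 3.36 CPM in DOX and at 3.17, 3.95, 1.69, 2.68 and 4.40 CPM in MYO. Control was at 5.75, 19.9 and 4.94 CPM, Hyper at 23.0, 5.42 and 8.18 CPM and RemoLV at 11.7, 14.7 and 10.3 CPM. Every MYO library was below every library outside the drug groups, and the RemoLV libraries were above all 10 drug libraries. MYO was lower than Control, at a log2 fold change of -1.69 (SE 0.465, edgeR adjusted p = 0.00732), or 3.23-fold. Control2 carried much of that size, and without it the value was -0.75 (edgeR adjusted p = 0.179). DOX differed from Control by -1.07 (SE 0.454, edgeR adjusted p = 0.0649). It was called without Control1 at -1.35 (adjusted p = 0.0399) and without Control3 at -1.40 (adjusted p = 0.0354), and by DESeq2 with all libraries at -1.09 (adjusted p = 0.0405). RemoLV differed from Control by 0.26 (edgeR adjusted p = 0.7), and by 1.19 (adjusted p = 0.047) without Control2.

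Both namings give the DOX, MYO and Hyper libraries the same kind of model, so the drug groups together against Hyper is the comparison that the naming touches least. MSTN was at 1.69 to 6.95 CPM over the 10 drug libraries and at 5.42 to 23.0 CPM in Hyper, a log2 difference of -1.63 (SE 0.389, edgeR adjusted p = 0.00394), or 3.1-fold lower, and -1.63 (SE 0.391, adjusted p = 0.00409) with the table names. Without Hyper1, the highest library, it was -0.79 (edgeR adjusted p = 0.196). TRIM54 was at 97.7 to 360 CPM in the drug libraries and 264 to 350 CPM in Hyper, with 9 of 10 drug libraries below all of Hyper. Its difference was -0.82 (SE 0.274, edgeR adjusted p = 0.0287) by file label and -0.85 (SE 0.231, adjusted p = 0.00913) by table name. The file-label call was lost without Hyper1, Hyper2 or Hyper3 (adjusted p of 0.0537 to 0.134). FBXO32 differed by -0.58 (SE 0.263, edgeR adjusted p = 0.1) by file label. It was called by table name, at -0.62 (SE 0.208, adjusted p = 0.0292), and without DOX5, at -0.79 (SE 0.16, adjusted p = 0.0013). FBXO40, at -0.37 (edgeR adjusted p = 0.0738), was called without DOX5 at -0.43 (adjusted p = 0.0259) and without MYO1 at -0.42 (adjusted p = 0.0386). FOXO3 was at -0.38 (edgeR adjusted p = 0.0869) by file label and -0.39 (adjusted p = 0.0781) by table name. It was called in a fit of the compared groups alone, at -0.38 (edgeR adjusted p = 0.022), and with the RemoLV-labelled libraries left out, at -0.38 (adjusted p = 0.0433). FUP and series of animals differ between these groups too, as does DDX3Y, and their part was not tested.

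Under the naming of the table, the libraries that serve as Control are those labelled RemoLV, and TRIM54 in DOX, MYO and RemoLV, TRIM55 in MYO and RemoLV, and FBXO40 in DOX and RemoLV changed sign against Control with a call under either naming. TRIM63 kept its sign in DOX, MYO and Hyper, as did TRIM55 in DOX and TRIM54 in Hyper. DOX then had 7 of 9 members called, against 29.6% of all genes. Higher were 4 members (15% of all genes), namely TRIM63 (0.89), TRIM54 (1.19), TRIM55 (0.41) and FBXO40 (0.51). Lower were 3 (14.6%), namely FOXO4 (-0.40), FBXO32 (-1.01) and MSTN (-1.34). MYO had 6 of 9 called, against 29.2% of all genes. TRIM63 (0.87), TRIM54 (1.92), TRIM55 (0.34) and FBXO40 (0.64) were higher, where 14.8% of all genes were, and FOXO1 (-0.45) and MSTN (-1.93) lower, where 14.4% were. RemoLV had 3 called, against 47.2% in both directions and 24% higher, with TRIM54 (2.29), TRIM55 (0.37) and FBXO40 (0.66) higher. Hyper had 3 called, against 35.8% in both directions and 18.7% higher, with TRIM63 (0.96), TRIM54 (2.41) and FBXO40 (0.94) higher. With these names, Hyper against Control compares the same libraries as RemoLV against Hyper by file label, with the sign turned. These 3 calls are therefore those given above. RemoLV against Control is likewise the file-label comparison turned, and RemoLV against Hyper is the file-label Hyper against Control turned. The drug groups against Hyper had 3 lower and 0 higher by table name, against 32.7% in both directions, 16.9% lower and 15.8% higher. RemoLV against Hyper and DOX against MYO had 0 called in edgeR, as had all genes, with 2 members each at an unadjusted p under 0.05. The 4 comparisons with Control share the same 3 libraries as Control. MSTN in MYO was the call against Control that both namings gave with the same sign.

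**Figure D3:**
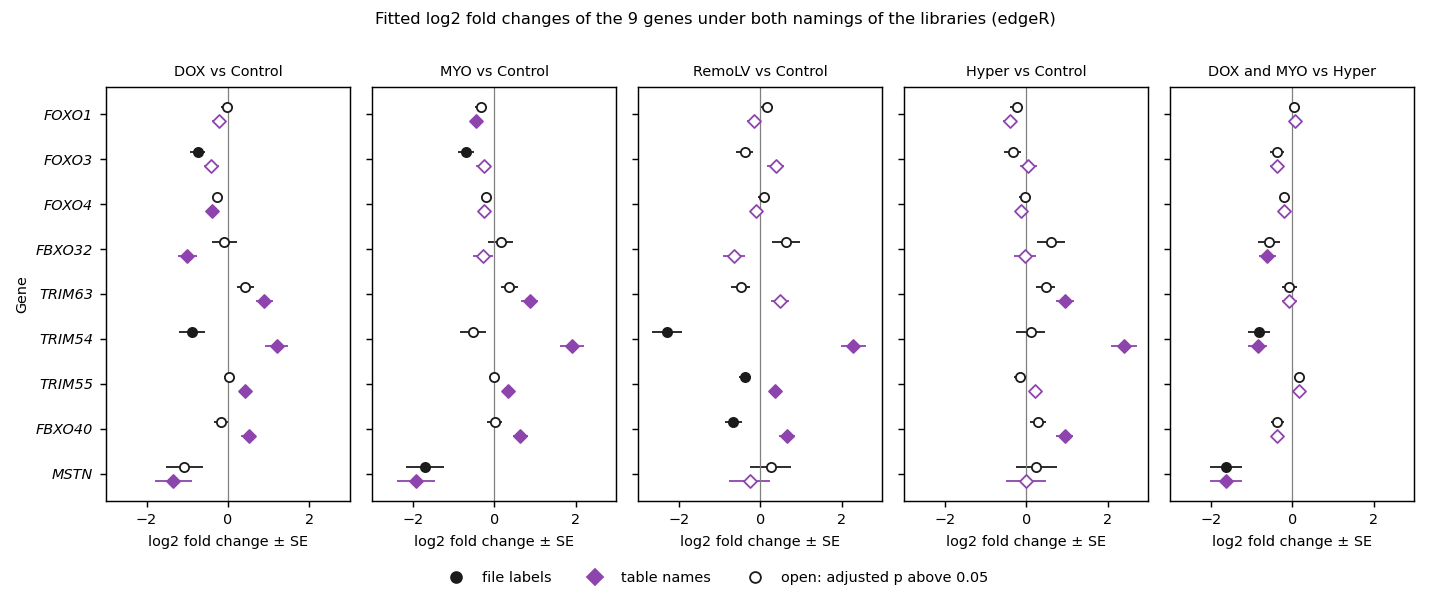
Fitted log2 fold change ± SE (horizontal axes) of the 9 genes (vertical axis) in 5 comparisons, by file label (black circles) and by table name (purple diamonds). Filled symbols have an adjusted p of at most 0.05. TRIM54 in RemoLV lies at -2.29 by file label and 2.29 by table name, while MSTN in the drug groups against Hyper lies at -1.63 in both.

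Of 25 genes listed as FoxO regulators, among them FOXM1, which FoxO factors oppose, 23 were tested. In DOX 5 were higher and 9 lower than Control, in MYO 2 and 7, in RemoLV 4 and 8, and in Hyper 0 and 0, with 9 in Hyper at an unadjusted p under 0.05. The called shares were 60.9% in DOX, 39.1% in MYO and 52.2% in RemoLV, beside 42.1%, 42.4% and 47.2% of all genes. By table name the counts were 5 and 4 in DOX, 1 and 6 in MYO and 8 and 4 in RemoLV, or 39.1%, 30.4% and 52.2% of the list beside 29.6%, 29.2% and 47.2% of all genes, and 6 and 4 in Hyper, or 43.5% beside 35.8%. FOXM1, a forkhead factor of the cell cycle that FoxO factors oppose, had the largest change in DOX and in MYO from a low level, at 1.43 to 2.51 and 1.25 to 2.42 CPM against 0.299 to 0.772 CPM in Control. Its log2 fold changes were 2.04 (edgeR adjusted p = 0.00302) and 1.88 (adjusted p = 0.00527). By table name they were 0.66 (edgeR adjusted p = 0.251) and 0.29 (adjusted p = 0.648), and against Hyper the drug groups were at 1.23 by file label (adjusted p = 0.0343) and 1.22 by table name (adjusted p = 0.0318). Against Control, the receptors that hold FoxO out of the nucleus were lower by file label and not by table name. IGF1R, the IGF-1 receptor, was at 23.0 to 49.8 CPM in MYO and 68.3 to 128 CPM in Control, a log2 fold change of -1.45 (edgeR adjusted p = 3.52e-05), and at 23.3 to 31.3 CPM in RemoLV (-1.90, adjusted p = 7.47e-06). INSR, the insulin receptor, was lower, at -1.41 in DOX (edgeR adjusted p = 0.00299), -1.53 in MYO (adjusted p = 0.00159) and -2.46 in RemoLV (adjusted p = 0.000109), with a wide Control range of 38.8 to 158 CPM. IRS2, an insulin receptor substrate, was higher in DOX by 1.51 (edgeR adjusted p = 0.0164), at 40.2 to 260 CPM against 27.4 to 42.3 CPM. SKP2, an F-box protein that promotes FoxO1 degradation, was higher in RemoLV by 1.95 (edgeR adjusted p = 0.00123). By table name INSR was at 1.11 (edgeR adjusted p = 0.0268) in DOX, 0.86 (adjusted p = 0.0777) in MYO and 2.46 (adjusted p = 9.45e-05) in RemoLV. IGF1R was at 0.56 (edgeR adjusted p = 0.0508) in DOX, 0.41 (adjusted p = 0.151) in MYO and 1.90 (adjusted p = 6.24e-06) in RemoLV, IRS2 in DOX at 1.91 (adjusted p = 0.0054), and SKP2 in RemoLV at -1.95 (adjusted p = 0.00126). In the drug groups against Hyper, IGF1R was at -0.82 under both namings (edgeR adjusted p = 0.00191 by file label and 0.00167 by table name).

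Of 22 FoxO targets listed, 20 were tested. In DOX 0 were higher and 6 lower than Control, in MYO 1 and 6, in RemoLV 2 and 10, and in Hyper 0 and 0. The called shares were 30% in DOX, 35% in MYO and 60% in RemoLV, beside 42.1%, 42.4% and 47.2% of all genes. The list's median log2 fold change was -0.44 in DOX, -0.36 in MYO and -0.58 in RemoLV, beside all-gene medians of 0.03, 0.02 and 0.02. By table name the medians were 0.06, 0.12 and 0.58, with 4 targets higher and 7 lower in DOX, 5 and 6 in MYO, and 11 and 2 in RemoLV. These are 55%, 55% and 65% of the list, beside 29.6%, 29.2% and 47.2% of all genes. In Hyper 5 targets were then higher and 1 lower, 30% beside 35.8%, with a median of 0.40. PDK4, the kinase that shuts off pyruvate dehydrogenase, had the largest change, at 34.9 to 285 CPM in DOX, 34.2 to 219 CPM in MYO and 1901 to 3547 CPM in Control. Its log2 fold changes were -4.27 in DOX (edgeR adjusted p = 5.51e-05) and -4.49 in MYO (adjusted p = 3.9e-05). Hyper was at 868 to 2614 CPM and RemoLV at 400 to 1117 CPM, so all 10 drug libraries were below all 9 others, and the difference of the drug groups from Hyper was -3.52 (edgeR adjusted p = 3.29e-05). In RemoLV, the damage response genes GADD45A (-2.38, edgeR adjusted p = 3.6e-05) and CDKN1A (-2.44, adjusted p = 0.000994) and the AKT-binding pseudokinase TRIB3 (-2.99, adjusted p = 0.00835) were lower than Control. By table name these were higher, at 2.38 for GADD45A (edgeR adjusted p = 2.67e-05), 2.44 for CDKN1A (adjusted p = 0.000605) and 2.99 for TRIB3 (adjusted p = 0.0112). PDK4 stayed lower by table name, at -2.49 in DOX (edgeR adjusted p = 0.00378), -2.90 in MYO (adjusted p = 0.00128) and -3.53 in the drug groups against Hyper (adjusted p = 2.78e-05).

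The SCF machinery that carries FBXO32 was lower as a list in the drug groups by file label: 7 of 7 tested genes were called lower in DOX and in MYO, where 21.1% and 21.7% of all genes were. The changes were small. COPS5, a subunit of the COP9 signalosome that removes NEDD8 from cullins, was at -0.66 in DOX (edgeR adjusted p = 6.18e-05), and CAND1, the cullin exchange factor, at -0.62 in MYO (adjusted p = 0.00157). RemoLV had 5 of 7 lower than Control (24% of all genes), and the drug groups had 4 of 7 lower than Hyper under either naming (16.9% of all genes). Without Control3, the DOX count was 3, where 27.4% of all genes were called in either direction. With the table names DOX had 1 higher and 1 lower, and MYO 0 and 1, where 29.6% and 29.2% of all genes were called in either direction. RemoLV had 5 higher, where 24% of all genes were. COPS5 was then at 0.08 in DOX (edgeR adjusted p = 0.583) and CAND1 at -0.41 in MYO (adjusted p = 0.0306), while COPS5 in the drug groups against Hyper was at -0.61 under both namings (adjusted p = 4.18e-05 and 4.25e-05).

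Among 12 other ubiquitin ligases of muscle, 2 were higher and 3 lower in DOX, 1 and 3 in MYO, and 1 and 5 in RemoLV. These are 41.7%, 33.3% and 50% of the list, beside 42.1%, 42.4% and 47.2% of all genes. By table name 2 were higher and 1 lower in DOX, 3 and 2 in MYO, and 5 and 1 in RemoLV. Those are 25%, 41.7% and 50% of the list, beside 29.6%, 29.2% and 47.2% of all genes. By file label, the largest called change in DOX was that of FBXL22, an F-box protein of the sarcomere, at 0.89 (edgeR adjusted p = 0.0454). FBXL22 in DOX was at 0.25 by table name (edgeR adjusted p = 0.616). In MYO the largest by file label was that of TRAF6, a ligase of inflammatory signalling, at 0.74 (edgeR adjusted p = 0.00182). TRAF6 was at 0.42 in DOX (edgeR adjusted p = 0.0462), and by table name at 0.78 in DOX (adjusted p = 0.00455) and 0.87 in MYO (adjusted p = 0.00192). UBR2, an N-end rule ligase, was at -0.61 in DOX (edgeR adjusted p = 7.5e-05) and -0.69 in MYO (adjusted p = 2.57e-05), and FBXO30 at -0.57 (adjusted p = 0.000579) and -0.52 (adjusted p = 0.0011). ASB2, a cullin adaptor of striated muscle, was at 145 to 164 CPM in RemoLV and 241 to 471 CPM in Control (-1.28, edgeR adjusted p = 9.55e-05). By table name UBR2 was at -0.25 in DOX (edgeR adjusted p = 0.0467) and -0.34 in MYO (adjusted p = 0.00991), FBXO30 at -0.04 (adjusted p = 0.8) and 0.01 (adjusted p = 0.937), and ASB2 in RemoLV at 1.28 (adjusted p = 0.000112). ASB2 then had the largest change of the list in DOX, at 1.45 (edgeR adjusted p = 3.18e-05), and in MYO, at 1.56 (adjusted p = 1.45e-05).

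In the myostatin pathway 14 of 18 listed genes were tested, with 1 higher and 3 lower in DOX, 0 and 3 in MYO, and 2 and 3 in RemoLV. The called shares of 28.6%, 21.4% and 35.7% were below the 42.1%, 42.4% and 47.2% of all genes. By table name 2 were higher and 2 lower in DOX, 2 and 2 in MYO, and 3 and 2 in RemoLV. Those are 28.6%, 28.6% and 35.7% of the list, beside 29.6%, 29.2% and 47.2% of all genes. INHBA, the activin A subunit, was lower, at -1.90 in DOX (edgeR adjusted p = 0.00236) and -2.06 in MYO (adjusted p = 0.00136). WFIKKN2, a myostatin-binding inhibitor, was at 12.3 to 18.2 CPM in RemoLV and 52.1 to 117 CPM in Control (-2.39, edgeR adjusted p = 1.45e-05). The signal mediators SMAD3 (-0.74, edgeR adjusted p = 0.01) and SMAD4 (-0.57, adjusted p = 0.00255) were lower in MYO. By table name INHBA was at -0.67 in DOX (edgeR adjusted p = 0.267) and -1.10 in MYO (adjusted p = 0.0742), WFIKKN2 in RemoLV at 2.39 (adjusted p = 1.19e-05), and SMAD3 and SMAD4 in MYO at 0.42 (adjusted p = 0.173) and -0.29 (adjusted p = 0.129). WFIKKN2 then had the largest change of the list in DOX, at 2.53 (edgeR adjusted p = 5.72e-06), and in MYO, at 2.97 (adjusted p = 1.07e-06). In Hyper against Control by file label no gene of these lists was called, with 0 of the other ligases, 0 of the SCF genes, 6 of the FoxO targets and 4 of the myostatin pathway at an unadjusted p under 0.05. By table name edgeR called 5 of 12 other ligases (4 higher and 1 lower), 3 of 7 SCF genes (3 and 0) and 6 of 14 myostatin pathway genes (2 and 4) in Hyper, where 35.8% of all genes were called. By file label without Control2, edgeR called 8 FoxO regulators (0 higher and 8 lower), 10 FoxO targets (5 and 5), 6 myostatin pathway genes (1 and 5) and 2 other ligases (0 and 2) in that comparison. Without Hyper1 it called 3 FoxO regulators, 2 myostatin pathway genes and 1 SCF gene, each lower. All-gene calls in Hyper against Control were 18.4% without Control2 and 5.6% without Hyper1.

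**Figure D4:**
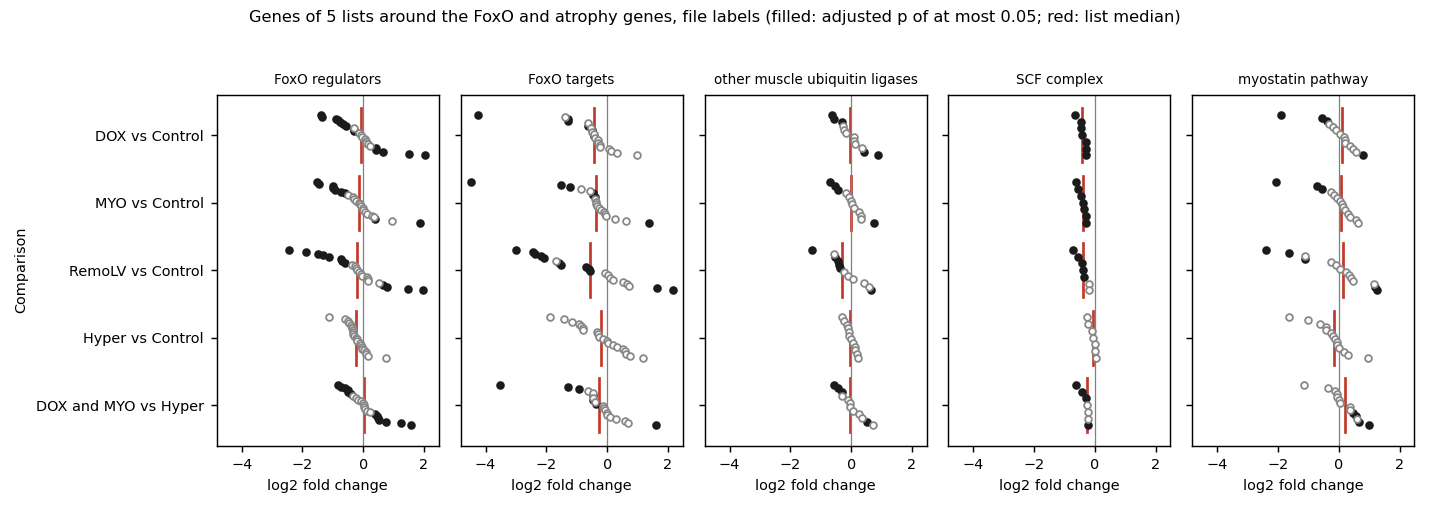
Log2 fold change (horizontal axes) of every tested gene in 5 lists, in 5 comparisons by file label (vertical axis). Filled points have an adjusted p of at most 0.05, and red lines are list medians. The farthest point is PDK4 at -4.49 in MYO against Control, and the 7 SCF genes lie below 0 in DOX and in MYO.

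Genes with the most similar pattern were sought for FBXO32, TRIM63 and MSTN, as the Pearson r of log2 CPM over the 19 libraries, which share groups, series and tissue differences. For TRIM63 they were LMOD2, a leiomodin of the thin filament (r = 0.926), SNORA61 (r = 0.892) and EFCAB11 (r = 0.868). Within the 10 drug libraries the r values were 0.861, 0.699 and 0.641, and within the 9 others 0.95, 0.95 and 0.919. For MSTN they were NTRK2, a neurotrophin receptor (r = 0.908), DENND4C (r = 0.879) and MINPP1 (r = 0.872), with r = 0.673, 0.488 and 0.792 within the drug libraries and 0.911, 0.911 and 0.841 within the others. For FBXO32 they were the zinc finger factor KLF11 (r = 0.797), the myosin-binding protein MYBPC2 (r = 0.787) and MAPRE3 (r = 0.778), with r = 0.786, 0.81 and 0.733 within the drug libraries and 0.663, 0.616 and 0.693 within the others.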

How the data were processed

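RNA-seq libraries of 19 pigs, 9527710 to 20370209 counts each, were analysed from the processed files. Per the submitters' notes and the methods, reads were aligned with STAR to Sscrofa11.1 and counted with HTSeq 0.11.1. The authors deposited whole-number counts per Ensembl gene and 1 file per library, without normalization. A second deposited file lists log2-scale values of 14744 genes in each library. It was used here only for gene symbols and to match names to count files (Spearman correlation of 1 with 1 file each, at most 0.992 with any other). Its DESeq2 log2 fold changes and adjusted p-values were not used.

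CPM values are TMM-scaled. The count test was edgeR 4.0.16 (R 4.3.3; quasi-likelihood, filterByExpr, 13552 genes, 1 model of 5 groups), with Benjamini-Hochberg adjustment. DESeq2 1.42.0, upper-quartile scaling, other filters, the compared groups alone, a replicate block, leaving out libraries and the table names were alternatives. The script was tested on simulated data: in DOX against Control it called 65% of genes changed by a log2 of 1 and 95% of those changed by 2. Intervals are nominal 95% intervals of 1.96 SE, a normal approximation somewhat narrower than the quasi-likelihood test implies. For FOXO4 in DOX against Control, the interval was -0.51 to -0.02 although the edgeR unadjusted p was 0.0511. The p-values are judged against the spread between these animals.

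Named genes were the 9 members, up to 3 called genes per list and comparison with the largest absolute log2 fold change, and the 3 genes most correlated with FBXO32, TRIM63 and MSTN. Members and lists were chosen with earlier results of these data known. Promoter windows came from the RefSeq annotation of Sscrofa11.1. Levels were not compared between genes, since counts were not divided by length.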

Additional observations from a re-analysis of the deposited data

Results flagged for a closer look

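The levels of 3 genes in the DOX group stood apart from the other 4 libraries by a gap of more than 0.71 of the group's range, the limit of Dixon's test for 5 samples. FBXO32 was at 523 CPM in DOX5, with the next library at 204 CPM, a gap of 0.912 of the range. FBXO40 was at 911 CPM in the same library, with the next at 661 CPM and a gap of 0.787. TRIM55 was at 304 CPM in DOX1, with the next at 239 CPM and a gap of 0.752. The test covered 18 sets of 5 libraries, and chance exceeds the limit in about 1 of 20. DOX5 is the library that the authors' table names MYO1.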

How the results depend on the processing

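With the table names the counts of members called changed to 7 in DOX (4 higher and 3 lower), 6 in MYO (4 and 2), 3 in RemoLV with the direction turned, 3 in Hyper and 0 in RemoLV against Hyper. Of 63 member values 22 changed sign, and 7 of these were called under either naming: TRIM54 in DOX (1.19), MYO (1.92) and RemoLV (2.29), TRIM55 in MYO (0.34) and RemoLV (0.37), and FBXO40 in DOX (0.51) and RemoLV (0.66), all against Control. In RemoLV against Control the exchange of names turns every sign. The majority there therefore also turned for 12 FoxO regulators, 13 FoxO targets, 6 other ligases, 5 SCF genes and 5 myostatin pathway genes. Leaving out DOX5 and MYO1 together, chosen after seeing the data, gave 4 members in the drug groups against Hyper, where 31.8% of all genes were called.

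Leaving out single libraries gave 1 to 3 members in DOX and in MYO, 2 to 4 in RemoLV, 3 to 4 in RemoLV against Hyper, and 0 to 4 in the drug groups against Hyper. All-gene calls in these fits ran from 27.4% to 44.7% in DOX and from 28.1% to 45.8% in MYO. They ran from 35.7% to 52.8% in RemoLV and from 28.2% to 33.7% in RemoLV against Hyper. The count in the drug groups against Hyper was 0 without Hyper1, 1 without Hyper2 or Hyper3, and 4 without DOX5, where 18.3%, 23.4%, 32.3% and 33.2% of all genes were called. In DOX against Control 1 member was called without DOX1, DOX2 or DOX4 (41.7%, 38.4% and 37.6% of all genes called), and in MYO 1 without Control3 (28.1%). Outside the table names, 1035 member values were recomputed, with 22 calls lost, 26 gained and 0 called values of changed sign. The cause of these changes was not tested.

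Replicate numbers did not pair the animals: 4 of 32 same-number pairs had deviations correlated over 0.1 (median r = 0.00687), and 4 of 19 libraries correlated best with a library of their own number. With the replicate block, 2 members were called in DOX, in MYO and in the drug groups against Hyper, beside 35.4%, 35.4% and 26.6% of all genes. The block ended the TRIM54 call in the drug groups against Hyper (-0.78, edgeR adjusted p = 0.0704), gave one for TRIM63 in DOX (0.50, adjusted p = 0.0496) and for FBXO32 in the drug groups against Hyper (-0.69, adjusted p = 0.0461), and turned the majority of 3 called myostatin pathway genes in DOX.

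Upper-quartile scaling moved the all-gene median of RemoLV against Control to 0.143, and TRIM55 there to -0.25 (edgeR adjusted p = 0.127). MSTN rested on 24 counts in its lowest library, which limits its precision. Groups of 3 animals limit every comparison outside the drug groups.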
